A study of Mus musculus with 12 samples.

Results

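The genes of the respiratory chain, nuclear and mitochondrial, were followed in microglia and astrocytes sorted from mouse brain. Microglia are the resident immune cells of the brain, and astrocytes are the glia that support neurons and line its vessels. Members were chosen by symbol, as the subunit genes of complexes I to V (the Nduf, Sdh, Uqcr and Atp5 genes and the nuclear Cox genes from Cox4 to Cox8) together with the mRNAs encoded in the mitochondrial genome, and 2 symbols marked as pseudogenes were left out. This gave 102 of the 40853 symbols in the deposited tables, 89 nuclear and 13 mitochondrial. The mitochondrial mRNAs were listed without the usual mt- prefix, as ND1 to ND6, ND4L, CYTB, COX1 to COX3, ATP6 and ATP8, and were matched by identical positions on the mitochondrial genome in RefSeq and GENCODE. Complex I had 40 nuclear and 7 mitochondrial members, complex II 4 nuclear members and no mitochondrial one, complex III 8 and 1, complex IV 20 and 3, and complex V 17 and 2. Some symbols are older names, such as Atp5a1 for the α subunit of ATP synthase and Atp5g1, Atp5g2 and Atp5g3 for the genes of its c subunit.

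The libraries came from 6 mice of 8 to 9 weeks, 3 labelled WT and 3 labelled KO for Kpna4, which encodes importin α4, a carrier of proteins into the nucleus. Every animal had received 1 mg/kg of lipopolysaccharide (LPS, an inflammatory molecule from the outer membrane of bacteria) into the peritoneum 20 h earlier, so no untreated group was analysed here, and each gave 1 microglia and 1 astrocyte library. In CPM, a gene's count relative to the total count of its library on the usual fixed scale, Kpna4 stood at 67.9, 96.4 and 89 CPM in the microglia labelled WT and at 78.6, 68.5 and 59.8 CPM in those labelled KO. In astrocytes it stood at 40.1, 51.1 and 57.6 CPM in the libraries labelled WT and at 69.0, 43.8 and 80.2 CPM in those labelled KO. The groups overlapped in both cell types, and the log2 fold change, KO over WT, was -0.31 ± 0.21 (SE; edgeR's quasi-likelihood test, adjusted p = 0.778) in microglia and 0.47 ± 0.23 (adjusted p = 0.999) in astrocytes. Which part of the gene the KO lacks is stated in no source used here, and a count over the whole gene does not show where its reads lie, so these values do not check the labels. WT and KO stand below for what the labels say of each library.

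The respiratory chain lies in the inner membrane of mitochondria. Complexes I and II feed electrons from NADH and succinate into ubiquinone, complex III passes them to cytochrome c, complex IV hands them to oxygen, and complex V, the ATP synthase, uses the resulting proton gradient to make ATP. Most subunits are encoded in the nucleus and imported. The genes of a few core subunits of complexes I, III, IV and V lie in the mitochondrial genome. They are transcribed as long polycistronic RNAs that are cut into mRNAs and rRNAs. Astrocytes are known for active glycolysis, and activated microglia for a shift of their energy metabolism.

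Library totals ran from 10319842 to 14520453 counts in microglia and from 10744794 to 15575662 counts in astrocytes. The 10 microglia markers summed to 16057 to 21125 CPM in the microglia libraries and to 171 to 644 CPM in the astrocyte libraries, and the 10 astrocyte markers to 341 to 754 and 16805 to 22242 CPM. Both sorted types thus carried the markers of their label. Astrocyte libraries also held oligodendrocyte lineage markers (8 of 8 detected, 886 to 4022 CPM summed, against 280 to 1740 CPM in microglia) and ependymal markers (5 of 5, 329 to 621 CPM against 5.04 to 12.7 CPM). Neuronal markers summed to 57.4 to 126 CPM in astrocytes and 9.54 to 20.5 CPM in microglia. Choroid plexus markers summed to 493 to 1107 CPM in astrocytes and 356 to 2227 CPM in microglia. In these bulk libraries, fewer cells of a type and less RNA per cell cannot be told apart.

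Most mitochondrial mRNAs were more abundant per kb of transcript than any nuclear member of known transcript length. ATP8, ND3 and ND6 lay below the nuclear Cox6c in both cell types. Per kb of transcript, the 13 mitochondrial members had a median level of 560 CPM per kb in microglia and 1948 CPM per kb in astrocytes, while the 82 nuclear members with a known transcript length had medians of 27.8 and 45.1 CPM per kb. ATP6, which encodes a membrane subunit of ATP synthase, led in astrocytes at 5250 CPM per kb, followed by COX1, the catalytic subunit of complex IV, at 4694 CPM per kb. In microglia their order was turned, with COX1 at 1783 and ATP6 at 1291 CPM per kb. Among nuclear members Cox6c was highest in both cell types, at 174 CPM per kb in microglia and 640 CPM per kb in astrocytes. ND6, the only mRNA from the other strand, was the lowest mitochondrial member per kb in both, at 74.0 and 162 CPM per kb. Reads of ND5 and ND6, which overlap on opposite strands, cannot be told apart in their overlap, since the library kit does not mark strand. The same holds along the rest of ND6 for any RNA of the opposite strand, so its values need not be those of its mRNA alone. ATP8 overlaps ATP6, and ND4L overlaps ND4, on the same strand. The 13 are thus counted by gene and need not be separate mRNAs.

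**Figure D1:**
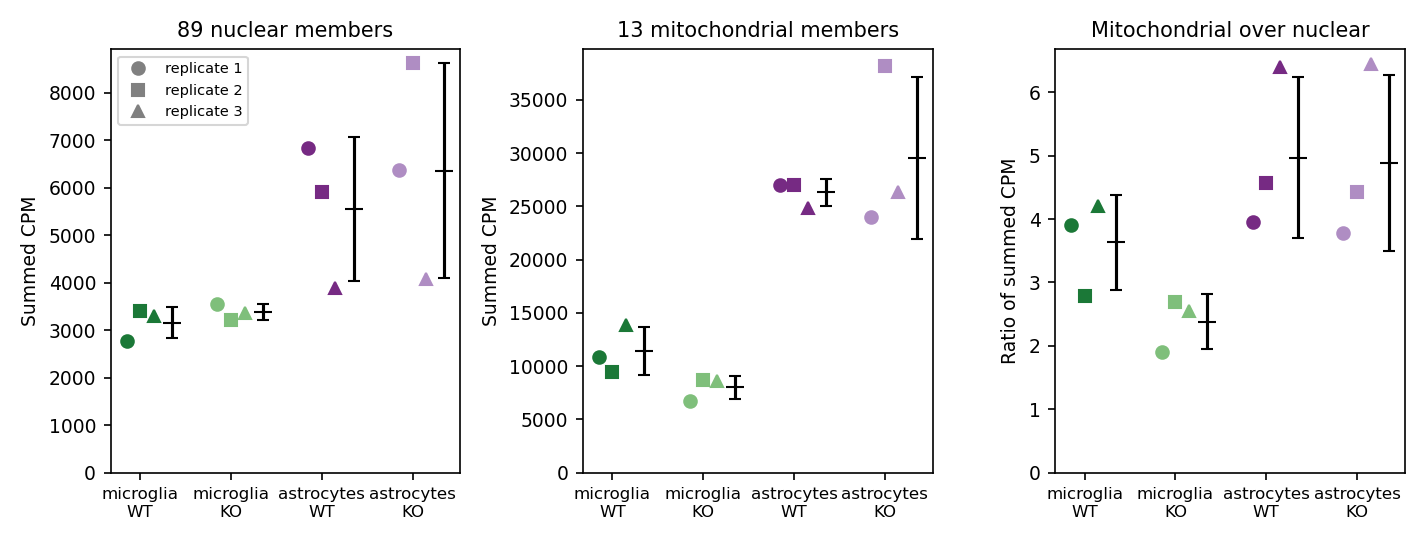
Summed CPM of the 89 nuclear members (left) and the 13 mitochondrial members (middle), and the ratio of the 2 sums (right), in each of the 12 libraries. Symbols mark the replicate number and black bars the mean ± SD of 3 libraries; mitochondrial sums in microglia lie between 6753 and 13900 CPM, below the lowest astrocyte library at 24041 CPM.

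Respiratory chain mRNA made up a smaller part of the microglia libraries than of the astrocyte libraries. The nuclear members summed to 2779, 3400 and 3311 CPM in the microglia labelled WT and to 3560, 3219 and 3374 CPM in those labelled KO. In astrocytes the sums were 6847, 5914 and 3891 CPM (WT) and 6371, 8619 and 4089 CPM (KO). The cell types did not overlap, but the third astrocyte library of each genotype lay close to the microglia. The mitochondrial members summed to 10844, 9490 and 13900 CPM in WT microglia and to 6753, 8690 and 8622 CPM in KO microglia, against 27028, 27001 and 24885 CPM in WT astrocytes and 24041, 38171 and 26370 CPM in KO astrocytes. Within each animal the astrocyte library held 1.79 to 4.39 times the mitochondrial mRNA share of the microglia library. The ratio of mitochondrial to nuclear members, which does not depend on the library total, was 1.90 to 4.20 in microglia and 3.77 to 6.45 in astrocytes. These ranges overlapped, although the astrocyte library had the higher ratio in each of the 6 animals, by 1.01 to 2.52 times.

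In the test of microglia against astrocytes over all 12 libraries, 97 of the 102 members passed the filter on low counts, and 83 of them fell, 2 rose and 12 were not called at an adjusted p under 0.05 (edgeR's quasi-likelihood test). Over all 17294 genes tested, 64.6% were called, 36.4% lower and 28.2% higher in microglia. The median log2 fold change was -1.11 for the 84 nuclear members tested and -1.72 for the 13 mitochondrial members, beside -0.19 for all genes tested. With library totals in place of TMM factors the median of all genes tested moved to 0.09, the nuclear median to -0.82 and the mitochondrial median to -1.42, and 65 members were called lower. The libraries of the 2 cell types did not overlap for 33 members that were lower in microglia and 1 that was higher, against 21.7% and 24.9% of all genes tested.

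All 13 mitochondrial mRNAs were lower in microglia, by 1.23 to 2.38 on the log2 scale, and each was lower in microglia than in astrocytes of the same animal in 6 of 6 animals. The call held for all 13 under each of the 15 other settings, which included leaving out each animal. These 15, here and below, do not include a minimum change of 2-fold, under which all 13 also kept the call. ND2, a core membrane subunit of complex I, ran from 340 through a median of 483 to 697 CPM in the 6 microglia libraries and from 1226 through 1969 to 3563 CPM in the 6 astrocyte libraries. The ranges were far apart, and the log2 fold change was -2.38 ± 0.29 (SE, adjusted p = 4.93e-06). ATP6 ran from 666 through 821 to 1160 CPM in microglia and from 2484 through 3278 to 5831 CPM in astrocytes, a log2 fold change of -2.37 ± 0.28 (adjusted p = 2.73e-06). The log2 fold change of ND4, also of complex I, was -2.15, and that of CYTB, the cytochrome b of complex III, was -1.89. COX1, COX2 and COX3, which form the core of complex IV, stood at -1.72, -1.70 and -1.55, and ND4L, ND3 and ND5 at -1.83, -1.77 and -1.72. The smallest differences among them were those of ND6 at -1.48, ATP8 at -1.23 and ND1 at -1.23. ND1 ran from 563 through 771 to 1221 CPM in microglia and from 1151 through 1530 to 2001 CPM in astrocytes, so its ranges overlapped. ATP8 was a low member by count, with 11.2 to 52.4 CPM in microglia and 45.1 to 109 CPM in astrocytes. It overlaps ATP6 on the same strand, so the values of these genes need not be those of separate mRNAs.

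Whether the mitochondrial mRNAs differed by 1 common factor was not tested, and their shares within a library depend on one another. As a share of the 13 mRNAs within a library, which is free of any scaling, ND1 made up 8.10% to 8.98% in microglia and 4.79% to 6.27% in astrocytes, higher in each microglia library. ND4 was the reverse, with 7.08% to 8.51% in microglia and 9.08% to 10.2% in astrocytes. For the other 11 mRNAs the shares overlapped between cell types. ATP6 ranged from 8.08% to 10.2% in microglia and from 9.68% to 15.3% in astrocytes, where the third library of each genotype was lowest. The mitochondrial rRNAs, transcribed from the same strand as most of the mRNAs, took 3.86% to 7.60% of microglia counts and 14.4% to 24.4% of astrocyte counts. Their log2 fold changes were -2.29 ± 0.23 for the small rRNA (mt-Rnr1, adjusted p = 5.73e-07) and -1.99 ± 0.24 for the large rRNA (mt-Rnr2, adjusted p = 3.98e-06).

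**Figure D2:**
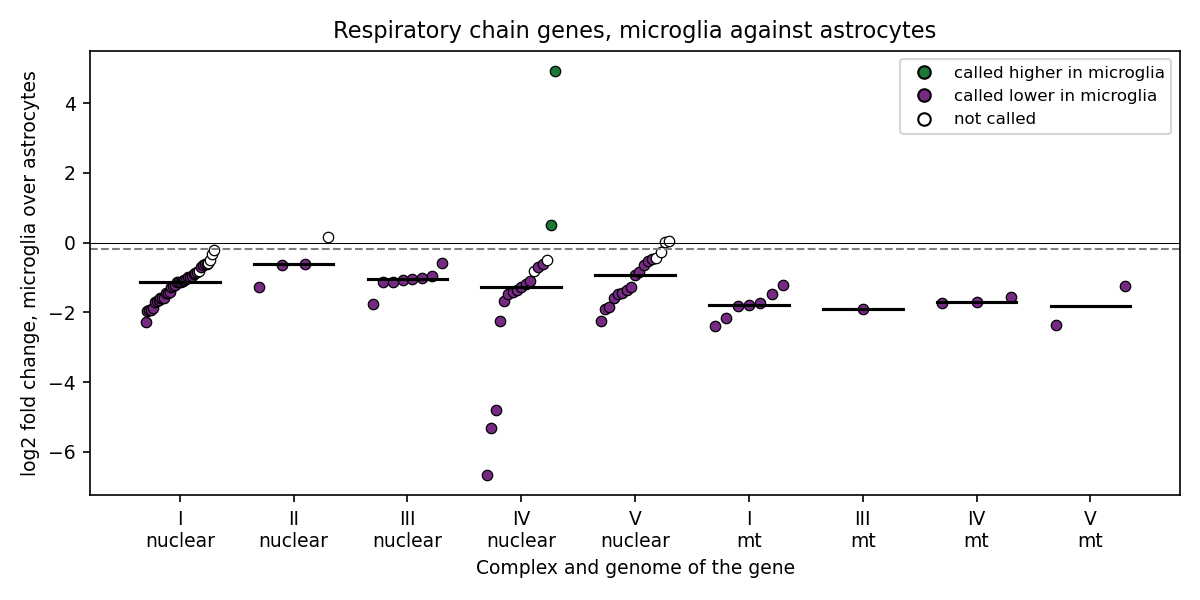
Log2 fold change of the 97 tested members, microglia over astrocytes, by complex and by the genome that encodes them. Each point is 1 gene, filled where the adjusted p was under 0.05; thick lines are medians of the group, the dashed line is the median of all genes tested (-0.19), and the mitochondrial members lie between -2.38 and -1.23.

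Complex I, the NADH dehydrogenase, had 33 of 38 tested nuclear members lower in microglia and none higher, with a median of -1.12. Ndufc2, an accessory subunit of its membrane arm, stood at 24.6 ± 4.56 CPM in microglia and 93.9 ± 40.0 CPM in astrocytes (mean ± SD, n = 6 libraries). The highest microglia library was at 31.1 CPM and the lowest astrocyte library at 44.0 CPM, and the log2 fold change was -2.26 ± 0.30 (adjusted p = 1.20e-05). Ndufa11, another membrane arm subunit, ran from 12.9 through 15.4 to 21.0 CPM in microglia and from 22.0 through 52.7 to 82.3 CPM in astrocytes, with a log2 fold change of -1.97 ± 0.33 (adjusted p = 1.11e-04). Ndufa9, Ndufs8, Ndufb1, Ndufb4 and Ndufb7 were not called. Of these, Ndufb7 had a log2 fold change of -0.81 (edgeR's adjusted p = 0.0583) and was called lower in 3 of the 15 other settings. Ndufa9, an accessory subunit, had 26.2 to 48.8 CPM in microglia and 27.1 to 51.7 CPM in astrocytes, a log2 fold change of -0.22 ± 0.23 that turned its sign in 4 of the 15 other settings. Ndufb4 and its copies Ndufb4b and Ndufb4c share reads, as their non-whole counts show, so their values cannot be assigned to 1 gene with certainty. Ndufa11b and Ndufs6b did not pass the filter.

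Complex II, succinate dehydrogenase, has no mitochondrial gene and also works in the citric acid cycle. Sdha, its flavoprotein, stood at 80.0, 115 and 145 CPM in WT microglia and at 113, 108 and 118 CPM in KO microglia. In astrocytes it stood at 238, 195 and 235 CPM (WT) and at 228, 226 and 215 CPM (KO). The ranges did not overlap, and the log2 fold change was -1.27 ± 0.15 (adjusted p = 3.73e-06). Sdhb, the iron-sulfur subunit, fell by 0.61 ± 0.18 (adjusted p = 0.00770), and Sdhc, a membrane anchor, by 0.63 ± 0.22 (adjusted p = 0.0227). Both were lower in microglia in 5 of 6 animals, and their calls were lost in 5 and 8 of the 15 other settings, with adjusted p up to 0.223 and 0.338. Sdhd, the other membrane anchor, was not called, with a log2 fold change of 0.17 ± 0.27 (adjusted p = 0.586), 11.4 to 34.4 CPM in microglia and 13.3 to 22.9 CPM in astrocytes.

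All 8 nuclear members of complex III were called lower in microglia, with a median of -1.05. Uqcr10, a small subunit, ran from 11.2 through 18.2 to 24.5 CPM in microglia and from 18.3 through 48.0 to 90.4 CPM in astrocytes. The ranges overlapped, with 5 of 6 animals lower in microglia, and the log2 fold change was -1.75 ± 0.36 (adjusted p = 6.60e-04). Uqcrc1, a core subunit, stood at 84.0 ± 12.9 and 148 ± 47.8 CPM (mean ± SD, n = 6 libraries), lower in 6 of 6 animals, with a log2 fold change of -1.13 ± 0.24. The call for Uqcrq, at -0.58, was lost in 9 of the 15 other settings, and the calls for Uqcrb and Uqcr11 in 6 and 5.

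In complex IV, cytochrome c oxidase, 13 of 17 tested nuclear members were lower in microglia and 2 were higher. Cox6c, the most abundant of them, stood at 95.6, 168 and 107 CPM in WT microglia and at 202, 111 and 88.6 CPM in KO microglia. It stood at 581, 594 and 152 CPM in WT astrocytes and at 500.6, 832 and 176 CPM in KO astrocytes. The third astrocyte library of each genotype fell within the microglia range, and the log2 fold change was -2.24 ± 0.42 (adjusted p = 3.11e-04). Cox8a followed the same pattern, with 75.3 and 61.8 CPM in the third WT and KO astrocyte libraries and 178 to 251 CPM in the other 4, against 45 to 88.4 CPM in microglia, and fell by 1.67. Cox7a2l, whose product helps to join complexes III and IV into a supercomplex, was 34.6 ± 8.34 CPM in microglia and 20.0 ± 4.87 CPM in astrocytes and was higher in microglia in 6 of 6 animals. Its log2 fold change of 0.51 ± 0.21 passed the test at an adjusted p of 0.0442, and the call was lost in 6 of the 15 other settings, with adjusted p from 0.00701 to 0.111. Cox7c and Cox8b were not called.

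Complex V had 13 of 17 nuclear members lower in microglia and none higher, with a median of -0.92. Atp5k, the e subunit, ran from 11.9 through 15.5 to 29.97 CPM in microglia and from 17.5 through 69.5 to 126 CPM in astrocytes, with a log2 fold change of -2.25 ± 0.46 (adjusted p = 5.61e-04). Its lowest astrocyte libraries, again the third of each genotype at 17.5 and 20.1 CPM, lay within the microglia range. Atp5mpl, another small membrane subunit, fell by 1.91 ± 0.48 (adjusted p = 0.00292). Atp5a1 and Atp5b, the α and β subunits of the catalytic head, were at -0.85 and -0.53, and the call for Atp5b was lost in 6 of the 15 other settings. The 3 genes of the c subunit, which encode the same mature protein, parted. Atp5g3 stood at 22.6 ± 4.06 CPM in microglia and 49.5 ± 13.4 CPM in astrocytes and fell by 1.44 ± 0.25 (adjusted p = 1.23e-04), lower in 6 of 6 animals. Atp5g1 and Atp5g2 were not called, at 0.05 ± 0.32 and 0.01 ± 0.29, with 13.2 to 20.4 and 12.3 to 27.1 CPM in microglia and 7.31 to 19.5 and 10.1 to 19.9 CPM in astrocytes. The inhibitor of the reverse reaction, listed as Atpif1 and not a member by its symbol, was also not called, at -0.02 ± 0.39.

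**Figure D3:**
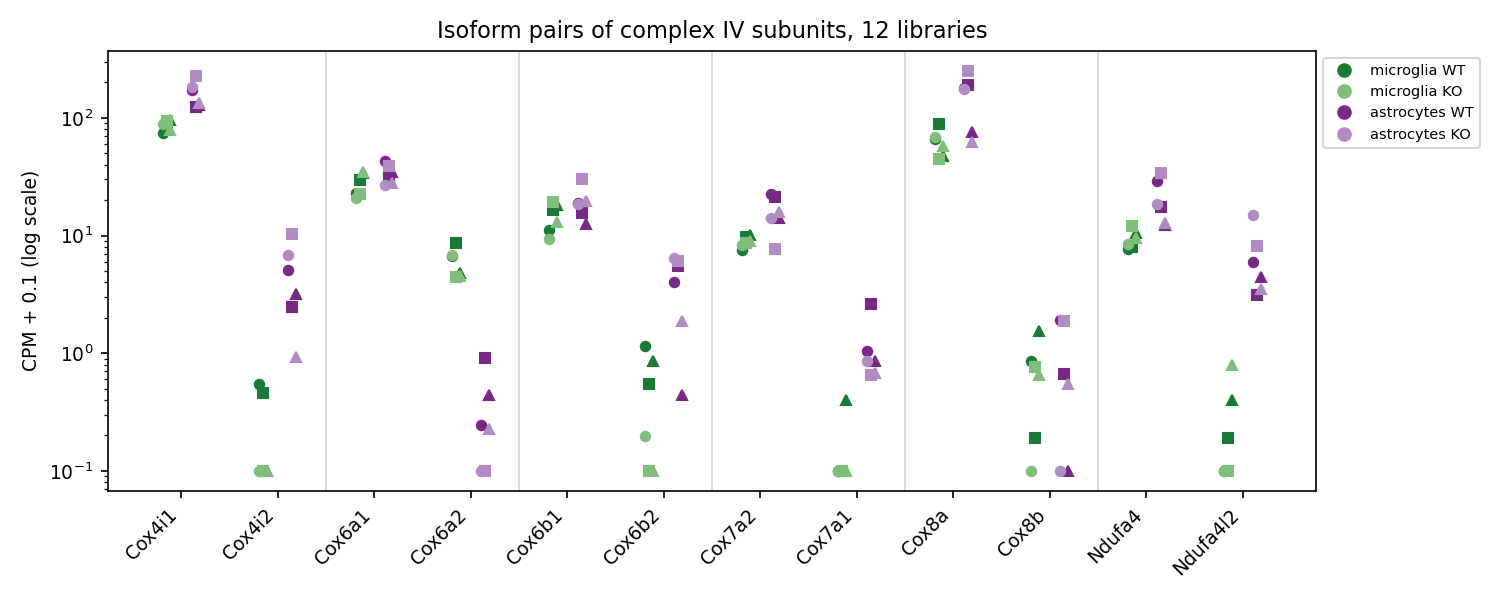
CPM plus 0.1 on a log axis for paired isoforms of complex IV subunits in the 12 libraries, microglia at left and astrocytes at right within each gene. Symbols mark the replicate number as in the plot of the sums, and a gene with no count sits at 0.1; Cox6a2 lies higher in microglia, while Cox4i2 and Ndufa4l2 lie higher in astrocytes, as does Cox6b2 except in the third WT astrocyte library.

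Several complex IV subunits have a common isoform and one best known from other tissues or from low oxygen. The common isoforms carried most of the counts in both cell types. Cox4i1 stood at 86.6 ± 8.52 CPM in microglia and 161 ± 40.1 CPM in astrocytes (mean ± SD, n = 6 libraries) and fell by 1.20 ± 0.19 (adjusted p = 5.32e-05). Cox6a1 and Cox6b1, at -0.60 and -0.70, were called at adjusted p of 0.0280 and 0.0388, and these calls were lost in 8 and 10 of the 15 other settings. With the animal as a block, the adjusted p of Cox6a1 was 0.0504. Cox7a2 fell by 1.10 ± 0.25 and Ndufa4, now counted as a subunit of complex IV, by 1.48 ± 0.33, from 12.2 to 33.7 CPM in astrocytes to 7.61 to 12 CPM in microglia.

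The rarer isoforms were low and went in different directions, so counts are given. Cox6a2, the isoform known from heart and skeletal muscle, had 87, 95 and 62 counts in WT microglia and 70, 52 and 64 in KO microglia, against 2, 10 and 5 in WT astrocytes and 0, 0 and 2 in KO astrocytes. It was the other member called higher in microglia (adjusted p = 5.60e-05) and kept that call in each of the 15 other settings. The gene shares an exon region with Itgad on the opposite strand, and Itgad itself had 0 to 27 counts in microglia, with 0 in each KO microglia library, and 0 to 31 in astrocytes. Cox4i2, known from lung and from low oxygen, had 6, 4 and 0 counts in WT microglia and 0 in each KO microglia library, against 69, 29 and 45 in WT astrocytes and 80, 109 and 13 in KO astrocytes. Ndufa4l2, a relative of Ndufa4 that hypoxia induces, had 15 counts over the 6 microglia libraries and 496 over the astrocyte libraries. Its exons overlap those of Shmt2 on the other strand, which ran the other way, from 62.0 to 75.9 CPM in microglia and from 10.9 to 26.4 CPM in astrocytes. Cox6b2, known from testis, had 30 counts in microglia and 294 in astrocytes. Cox4i2, Ndufa4l2 and Cox6b2 were called lower in microglia, at adjusted p of 1.88e-04, 1.58e-04 and 4.22e-04. Cox7a1, the muscle isoform, had 4 and 79 counts and did not pass the filter, Cox8b had 46 and 58, and Cox8c had none in any library. Ependymal, pericyte and smooth muscle markers were also higher in the astrocyte libraries, the latter (5 of 5 detected) at 183 to 244 CPM summed against 4.94 to 25.9 CPM in microglia, and their part in the astrocyte counts of these isoforms was not tested.

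In each length class most nuclear members tested were lower in microglia. Of nuclear members of up to 500 bases, 4 of 6 (66.7%) were lower, against 29.3% of the other genes of that length, and the median of the 6 was -1.17 on the log2 scale. Of nuclear members over 2000 bases, 6 of 7 (85.7%) were lower in microglia, against 38.5% of the other genes of that length, and of those over 500 and up to 750 bases 27 of 31 (87.1%), against 37.5%. The median log2 fold changes of the latter 2 length classes were -0.85 and -1.28. For 28 of the 89 nuclear members the GENCODE annotation has an exon of another gene on the same bases, 24 of them of a coding gene, and reads there cannot be assigned by strand.

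Many nuclear members are known targets of the transcription factors NRF1 and GABPA, which bind near the start of genes for mitochondrial proteins, so the 250 bases before each start were searched on both strands. RefSeq's promoter table (GRCm38.p6) held 70 of the 89 nuclear members. Of all its starts, 47.7% matched the beginning of a GENCODE transcript of the same gene, so a listed start may not be the one used. The letters of the NRF1 motif, GCGCA, any base, then GCGC, were found before 13 of 70 members (18.6%), before 7.76% of 13084 other genes tested and before 4.23% of all 27025 genes in the table. The letters CCGGAAG of ETS factors such as GABPA were found before 12 members (17.1%), before 13.3% of the other genes tested and before 7.83% of all genes. AAGATGGCG, read by YY1, and TCAAGGTCA, read by ESRRA, were each found before 1 member (1.43%), Atp5j and Atp5g3, against 1.20% and 0.321% of the other genes tested. Such a match is a description of the sequence and shows no binding. Of the 13 members with the NRF1 letters, 10 were called in the comparison of cell types and 3 were not, beside 12 not called among all 84 nuclear members tested. The stretches below are shown because they hold the same letters before members that fell (Sdha, Ndufa11, Atp5k) and before members that were not called (Sdhd, Atp5g2); capitals mark the motifs, NRF1 in each and also the ETS letters, read on the other strand, in the second part of the Sdhd stretch. They are given 5′ to 3′ on the strand of the gene, and lie at chr13:74350241-74350340 (minus strand), chr17:56717682-56717731 (plus), chr5:108434420-108434469 (minus), chr9:50603870-50603949 (minus) and chr15:102671058-102671107 (minus), in the order printed.
Sdha: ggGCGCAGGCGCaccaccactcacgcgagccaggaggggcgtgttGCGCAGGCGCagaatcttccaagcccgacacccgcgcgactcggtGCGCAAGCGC
Ndufa11: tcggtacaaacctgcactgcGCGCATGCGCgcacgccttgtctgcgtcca
Atp5k: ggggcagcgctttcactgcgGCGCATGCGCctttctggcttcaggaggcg
Sdhd: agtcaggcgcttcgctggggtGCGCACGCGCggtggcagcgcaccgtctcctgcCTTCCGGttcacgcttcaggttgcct
Atp5g2: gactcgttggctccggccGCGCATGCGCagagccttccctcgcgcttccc

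Sdha carries the NRF1 letters 3 times within these 100 bases, and the other 4 stretches carry them once. The letter at the open position N differs between members, and Ndufa11, Atp5k and Atp5g2 share the same 10 letters although only the first 2 were called.

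Other genes of the pathway are given beside the share of all genes tested, 36.4% lower and 28.2% higher in microglia. Of the 45 assembly factors, which build the complexes and are not part of them, 11 were lower in microglia and 3 higher, with a median of -0.25. Lyrm7, a factor of complex III, was at -2.10 and Cox15, which makes heme a for complex IV, at 1.02. Of the 13 citric acid cycle enzymes 10 were lower and none higher, among them the succinyl-CoA ligase subunit Suclg1 at -1.55. Of 15 genes of electron carriers and other entry points 8 were lower, led by the glycerol phosphate dehydrogenase Gpd2 at -3.62 and the ubiquinone factor Coq8a at -2.57, and 1 was higher, Coq2 at 0.42. Of 16 genes that copy and express mitochondrial DNA, 7 were higher in microglia and 1 was lower, with a median of 0.35. Polg2, a subunit of the mitochondrial DNA polymerase, was at 1.61, the mitochondrial RNA polymerase Polrmt at 1.11, and Slirp, which stabilises mitochondrial mRNA, at -1.28. Of the 78 genes of the mitochondrial ribosome 14 were lower and 8 higher, with a median of -0.11. Of the 8 regulators 3 were higher and 1 lower. The coactivator Ppargc1a was at -4.83 ± 0.34 (adjusted p = 1.54e-08) and its relative Pprc1 at 3.27 ± 0.25 (adjusted p = 2.71e-08), both relative to a median of -0.19 for all genes tested.

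The second comparison sets the LPS-treated microglia labelled KO for Kpna4 against those labelled WT. No member was called between KO and WT microglia (0 of 93 tested, edgeR's quasi-likelihood test), and neither was any of the 14191 genes tested (0%). At an unadjusted p under 0.05 stood 10 members, beside 7.42% of all genes tested (5.07% lower, 2.35% higher in KO). Of these 10, 9 were mitochondrial mRNAs, each lower in the libraries labelled KO, and 1 was nuclear. DESeq2's Wald test on the same libraries called 41 genes and no member.

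All 13 mitochondrial mRNAs had a log2 fold change below 0, from -0.80 to -0.34, with a median of -0.48 beside -0.00 for all genes tested, and the smallest adjusted p among them was 0.539. ND2 stood at 691, 523 and 697 CPM in the microglia labelled WT and at 340, 443 and 402 CPM in those labelled KO. Its libraries did not overlap, and the log2 fold change was -0.71 ± 0.20 (edgeR's adjusted p = 0.539). Under 15 other settings its adjusted p ranged from 0.0545, with DESeq2's Wald test, to 0.997. ND6 stood at 38.3, 57.1 and 50.3 CPM (WT) and at 30.7, 28.4 and 25.6 CPM (KO), a log2 fold change of -0.80 ± 0.23, and ND5 at 1642, 1418 and 1937 CPM and at 1024, 1183 and 1064 CPM, one of -0.63 ± 0.19. COX1 stood at 2907, 2794 and 3962 CPM (WT) and at 1843, 2399 and 2628 CPM (KO), with -0.51 ± 0.20. CYTB and COX2 also had no overlap between labels, so that 6 of the 13 did not overlap, beside 6.57% of all genes tested that were lower in KO without overlap. The 13 were measured in the same libraries and most are cut from the same long RNAs, so no count of them is one of independent genes. For ND1, ND3, ND4, ND4L, COX3, ATP6 and ATP8 the libraries overlapped, with log2 fold changes of -0.55, -0.34, -0.48, -0.48, -0.48, -0.48 and -0.42.

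The sums are made of the same 13 mRNAs in the same libraries, so they add no separate evidence. The mitochondrial members took 11411 ± 2259 CPM in WT microglia and 8022 ± 1099 CPM in KO microglia (mean ± SD, n = 3 each), and their ratio to the nuclear members was 3.63 ± 0.742 and 2.38 ± 0.428. By this ratio the second WT library, at 2.79, lay close to the highest KO library, at 2.7. WT library 3 had the highest mitochondrial sum, and without it the median of the 13 log2 fold changes was -0.35 and 3 rather than 9 had an unadjusted p under 0.05. The latter count was also 3 without KO library 1. Choroid plexus markers (5 of 5 detected in both labels, Ttr among them) summed to 884, 1114 and 2227 CPM in WT microglia and to 356, 551 and 902 CPM in KO microglia, and oligodendrocyte lineage markers (8 of 8) to 619, 280 and 1740 CPM and to 406, 316 and 779 CPM. WT library 3 was thus also the highest in both marker sums. Astrocyte markers (10 of 10) summed to 560, 341 and 754 CPM in WT microglia and to 372, 405 and 376 CPM in KO microglia, which overlapped. Ependymal markers (5 of 5) summed to 7.54, 12 and 12.7 CPM and to 5.04, 5.44 and 7.30 CPM, without overlap, and those of pericytes and smooth muscle (5 of 5) to 16.9 to 25.9 and 4.94 to 19.0 CPM. Endothelial markers (5 of 5) summed to 16.5 to 57.5 CPM and to 16 to 24 CPM. The part of these cell types in the mitochondrial result was not tested. Mitochondrial rRNA took 5.55%, 5.0% and 7.60% of counts in WT microglia and 3.86%, 5.99% and 5.13% in KO microglia, and overlapped.

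**Figure D4:**
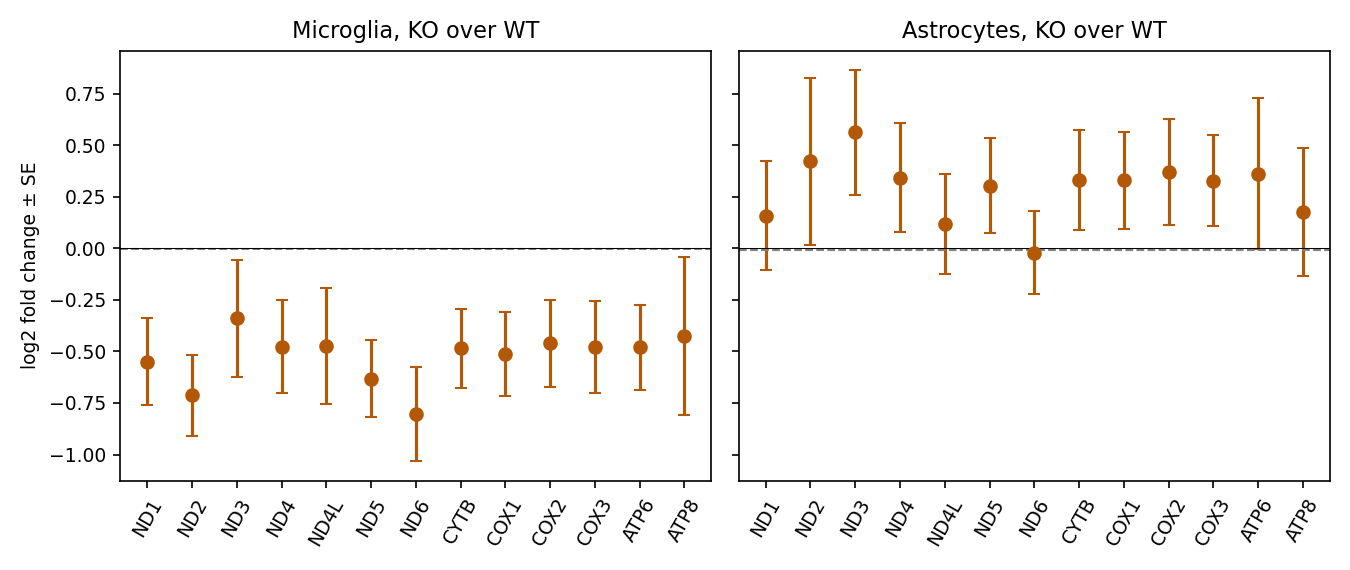
Log2 fold change ± SE of the 13 mitochondrial mRNAs, KO over WT, in microglia (left) and astrocytes (right); the dashed lines are the medians of all genes tested. The points lie from -0.80 to -0.34 in microglia and from -0.02 to 0.56 in astrocytes, and none was called.

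Nuclear members did not go the same way in microglia. Their median log2 fold change was 0.08, with 50 of 80 above 0, and -0.04 without WT library 1. The libraries did not overlap for 4 that were higher and 2 that were lower in KO, beside 6.53% and 6.57% of all genes tested. Sdhb, the iron-sulfur subunit of complex II, was the only nuclear member with an unadjusted p under 0.05. It stood at 34.4, 32.0 and 38.6 CPM in WT and at 47.1, 45.4 and 52.7 CPM in KO microglia, without overlap, and its log2 fold change was 0.45 ± 0.21 (edgeR's adjusted p = 0.670). Ndufa13, a complex I subunit, stood at 59.1, 67.2 and 53.3 CPM (WT) and at 36.3, 47.9 and 50.3 CPM (KO), with a log2 fold change of -0.44 ± 0.21, and Atp5l, the g subunit of ATP synthase, overlapped between labels at 0.49 ± 0.24. Of the other lists, no gene was called in KO against WT in either cell type.

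In astrocytes, 0 of 96 members were called between KO and WT (edgeR's quasi-likelihood test, smallest adjusted p 0.999), and 0% of the 15755 genes tested. An unadjusted p under 0.05 was reached by 2 members, both higher in KO, beside 2.37% of all genes tested (1.13% higher, 1.24% lower). The libraries overlapped for all 96 members, while 2.39% of all genes tested were higher and 5.74% lower in KO without overlap, and DESeq2's Wald test called 4 genes and no member. The nuclear members had a median log2 fold change of 0.36, with 75 of 83 above 0, and the mitochondrial ones of 0.33, with 12 of 13 above 0, beside -0.01 for all genes tested. These values depended on KO library 2, and without it the medians were -0.08 and -0.02. Without WT library 3 they were 0.15 and 0.25, without KO library 3 0.62 and 0.42, and without KO library 1 0.47 and 0.52. KO library 2 was the highest of the 6 for 55 of 83 nuclear members, and WT library 3 was the lowest for 42. KO library 2 also stood apart in make-up, with a TMM factor of 0.72 against 0.89 to 1.01 in the other astrocyte libraries. Mitochondrial and abundant non-coding RNAs took 43.3% of its counts, against 28.6% to 34.7% in the others. It had the fewest genes with a count, 15791, and the part of these traits in the medians was not tested. With library totals in place of TMM factors, the medians were 0.21 and 0.18 and that of all genes -0.11.

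Ndufs3, a subunit of complex I, had the smallest p among nuclear members. It stood at 28.7, 30.7 and 27.2 CPM in WT and at 48.3, 53.0 and 27.5 CPM in KO astrocytes. The third KO library lay within the WT range, and the log2 fold change was 0.72 ± 0.32 (edgeR's adjusted p = 0.999). Cox5a, a nuclear subunit of complex IV, stood at 38.3, 37.2 and 21.0 CPM (WT) and at 50.9, 66.1 and 35.1 CPM (KO), with 0.80 ± 0.36, and Ndufb6 at 12.5, 7.40 and 8.07 CPM and at 15.4, 20.1 and 10.5 CPM, with 0.87 ± 0.43. Among mitochondrial members ND3 had the smallest p, at 88.2, 94.4 and 92.8 CPM (WT) and 82.6, 164 and 115 CPM (KO), a log2 fold change of 0.56 ± 0.30 (edgeR's adjusted p = 0.999).

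**Figure D5:**
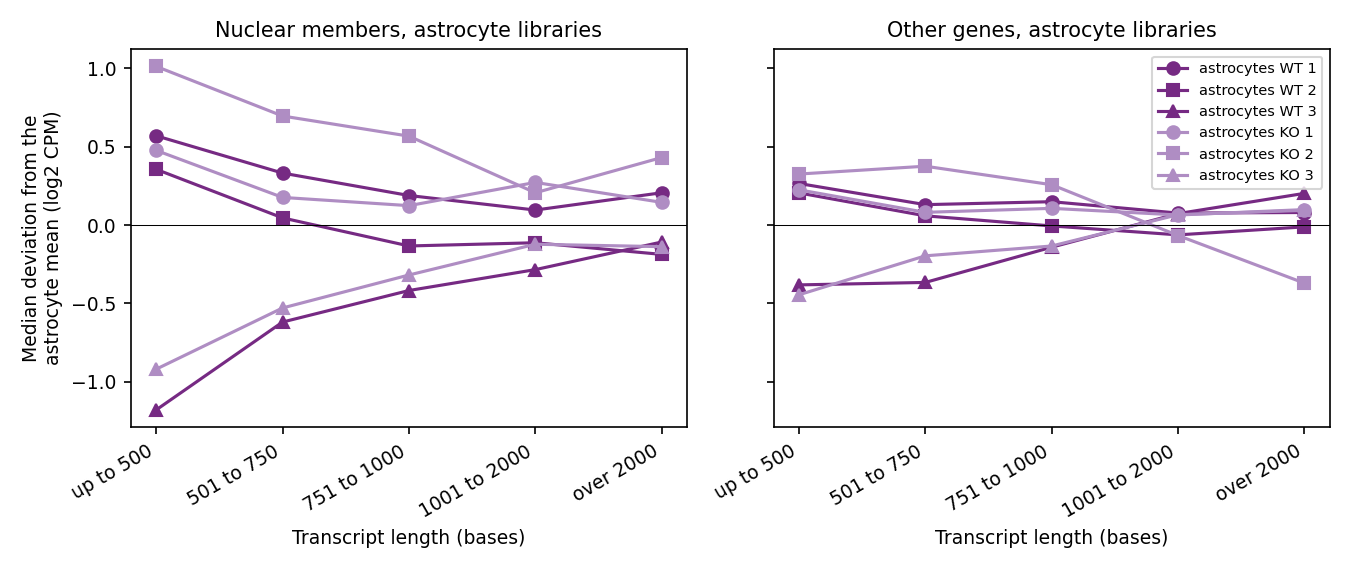
Median deviation of log2 CPM from the astrocyte mean, by transcript length, for nuclear members (left) and other genes (right) in the 6 astrocyte libraries. Among members of up to 500 bases the third libraries lie at -1.18 (WT) and -0.92 (KO) and KO library 2 at 1.01; the lines of the members draw together toward long transcripts, while among other genes over 2000 bases KO library 2 lies apart, at -0.37.

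The astrocyte libraries stood further apart in the median of short members than in that of long ones. Among the 5 nuclear members of up to 500 bases, the median deviation from the astrocyte mean on the log2 scale was -1.18 in WT library 3 and -0.92 in KO library 3, and 1.01 in KO library 2. Among the 7 members over 2000 bases it was -0.11, -0.14 and 0.43. Other genes of up to 500 bases went the same way by less, at -0.38, -0.44 and 0.33. Each length is that of the longest principal transcript of a gene, which need not be the one expressed. Ndufb2, a complex I subunit classed by a transcript of 4371 bases, ran from 8.09 to 24.1 CPM. It was lowest in WT library 3 and KO library 3 and highest in KO library 2, as the short members were. The part of transcript length in the spread between libraries was not tested. The short members of microglia libraries deviated by -0.26 to 0.47.

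The difference between the genotype effects of the 2 cell types was tested in 1 fit of all 12 libraries. No member was called (0 of 97, edgeR's quasi-likelihood test), nor was any gene (0% of 17294), while DESeq2's Wald test called 54 genes and no member. An unadjusted p under 0.05 was reached by 11 members, 8 of them mitochondrial, each with a higher effect in astrocytes, beside 6.37% of all genes tested (5.17% higher). The mitochondrial members had a median difference of 0.93 on the log2 scale, all 13 above 0, and the nuclear members one of 0.37. The median of all genes tested was 0.16, and with mitochondrial and abundant non-coding RNAs left out of the scaling these 3 medians were 0.77, 0.22 and 0.02. ND6 had the smallest p among mitochondrial members, with a difference of 0.88 ± 0.29 (edgeR's adjusted p = 0.589) in this joint fit. ND2 differed by 1.25 ± 0.56. Among nuclear members Cox6b2 and Cox4i2 had the smallest p, on very few counts in microglia: Cox6b2 had 14, 5 and 10 counts in WT and 1, 0 and 0 in KO microglia, so no fold is given. Ndufa13 differed by 1.29 ± 0.53 (edgeR's adjusted p = 0.709), with 124, 106 and 74.2 CPM in WT and 156, 222 and 74.8 CPM in KO astrocytes. Without KO animal 2 the mitochondrial median was 0.51 and the nuclear median -0.17. The 8 mitochondrial members with an unadjusted p under 0.05 became 1 to 6 when any 1 animal was left out, with 1 without KO animal 2 or WT animal 3, and 1 with library totals in place of TMM factors.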

How the data were processed

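RNA of sorted microglia and astrocytes was sequenced as full-length SMART-Seq HT cDNA with Nextera libraries, per the labels' protocols, without molecular identifiers, so counts hold amplified copies. The authors deposited expected counts per gene symbol, estimates that need not be whole, in 1 table per cell type. RSEM 1.3.3, STAR 2.7.10b, limma and the build GRCm39 are named in the submitters' processing notes, with no roles. Of the values above 0, 3.44% to 5.27% per library were not whole (tolerance 0.001), and 6 members had such values. Expected counts were rounded. CPM were computed per library total, of 10319842 to 15575662 counts.

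The main test was edgeR 4.0.16 (R 4.3.3), quasi-likelihood, with TMM factors, filterByExpr (minimum count 10) and Benjamini-Hochberg adjustment over all genes tested, called at 0.05. It was fitted per cell type for KO over WT, and on 4 groups of 3 libraries for microglia over astrocytes and the interaction. The sums have no test. Microglia and astrocyte libraries were paired by the animal in the labels (correlation of deviations 0.002 to 0.093) and animal was a block only in an alternative. Other alternatives were DESeq2 1.42.0, DESeq2 size factors, library totals, scaling without mitochondrial and abundant non-coding RNAs, limma 3.58.1 voom, other count filters (none, or a minimum count of 50), a 2-fold minimum and each animal left out; leaving out both animals numbered 3 was chosen after seeing the data. Scripts were tested on simulated data.

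The members and lists were chosen with earlier results of these data known. Named are the mitochondrial members, the isoform groups, complex II, per complex the 2 nuclear members with the largest called rise and fall at 10 CPM or more, and per genotype comparison the 3 nuclear and 1 mitochondrial members with the smallest p, and per other list the 2 largest called rises and falls; Ndufa9, Uqcrq, Uqcrb, Uqcr11, Atp5a1, Atp5b and Ndufb2, and Itgad and Shmt2, were added after their values were seen, for their roles, lost calls or overlap. Transcript lengths and overlaps come from GENCODE M21 and sequences from RefSeq (GRCm38.p6), and no coordinates of the deposited tables were used. The length of a nuclear gene is that of its longest principal transcript, so length classes and levels per kb may miss the transcript expressed. Libraries of a group are separate animals. Some genes that these rules name are not reported here.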

Additional observations from a re-analysis of the deposited data

How the results depend on the processing

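No member was called between KO and WT in either cell type, or in the difference between cell types, under any of the 16 other settings for each. Over all genes, calls for KO over WT in microglia rose from 0 to 41 with DESeq2's Wald test, 121 with no count filter and 30 with the replicate block, and in astrocytes to 4, 17 and 0; for the difference between cell types they rose to 54, 160 and 0. Replicate numbers are shared by WT and KO, but the labels tie them to no litter or day. Same-numbered microglia correlated at 0.134, 0.051 and 0.197, each best with its own number, and astrocytes at -0.021, 0.049 and 0.231, not so. With the replicate block 0 members were called in either. For microglia over astrocytes, 85 members were called, 81 with the animal as replicate block, which lost Cox6a1, Ndufa1, Ndufa8 and Uqcrq, 63 to 86 over the other settings and 61 to 79 with an animal left out. Of the 70 nuclear members called lower, 44 kept the call in each of 15 settings, which do not include the 2-fold minimum. Under that minimum 49 nuclear members were called lower. For microglia over astrocytes, signs turned in 7 members, none of them called: Ndufa9 (in 4 settings, up to 0.12), Atp5d (2, up to 0.0074), Cox7c (1, at 0.048) and the following. Cox8b was at 0.56 with voom and from -1.38 to 0.049 with an animal left out (0.049 without KO replicate 2). Atp5g1 was at -0.064 without both animals numbered 3. Atp5g2 was at -1.81e-05 with DESeq2 size factors, -0.34 without both animals numbered 3, -0.028 at a minimum count of 50, and from -0.15 (without WT replicate 3) to 0.41 with an animal left out. Sdhd was at -0.034 without both animals numbered 3, and from -0.011 (without WT replicate 3) to 0.47 with an animal left out. The log2 ratio of nuclear sums, KO over WT in astrocytes, was -0.09 to 0.43 with a library left out, and of mitochondrial sums -0.06 to 0.29. The cause was not tested.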
